A study of Mus musculus with 8 samples.

Results

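Keratins are the intermediate filament proteins of epithelial cells, and a filament forms only where an acidic type I keratin pairs with a basic type II keratin. Simple epithelia such as the lining of the lung use Krt7 and Krt8 (type II) with Krt18 and Krt19 (type I), whereas the basal cells of stratified and airway epithelia are known for Krt5, Krt14, Krt15 and Krt17 and for Trp63, the transcription factor that maintains them. Dmkn encodes dermokine, a secreted protein best known from the outer layers of the epidermis, where it lies in a gene cluster with Sbsn and Krtdap. These 10 genes were chosen by symbol, with the knockout and wild type CPM of earlier results in view: Dmkn was selected on its high CPM in the knockout lungs, and the keratin and basal genes were set around it. In the table of lung transcripts 6 of the 10 were listed among 15728 genes. Listed were Dmkn, the basal keratin gene Krt15 and all 4 simple epithelial keratin genes, and each of the 6 passed the filter on low values. Krt5, Krt14, Krt17 and Trp63 were not analysed here.

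The lungs came from 4 triply n/i/eNOSs-/- mice (TR1 to TR4), in which the genes of all nitric oxide synthase isoforms (nNOS, iNOS and eNOS) are knocked out, and from 4 wild type mice (WT1 to WT4). All 8 are labelled with a C57BL/6J strain background, 4 weeks of age and no exposure. The labels describe mice in the plural, without their sex, litters or library batches, so p-values measure only the spread between these 8 samples. Total RNA of whole lung was profiled by CAGE (cap analysis of gene expression), a method that reads the RNA at its capped 5′ end, and the values are counts per 1000000 reads (CPM). A transcript gives 1 tag whatever its length, so CPM of different genes can be set side by side as tags per gene, without division by length. In bulk tissue, fewer cells of a type and less RNA per cell cannot be told apart.

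Library totals recovered from the CPM steps were 13014134 to 15096188 reads in TR and 15598154 to 18593913 reads in WT, so every TR library was shallower than every WT library. Lung markers were present: Ager, of alveolar type 1 cells, averaged 1060 CPM in TR and 1121 CPM in WT (limma adjusted p = 0.273; 0.0426 with quantile normalization). Foxj1, the transcription factor of ciliated airway cells, fell to 51.7 CPM in TR, against 85.1 CPM in WT on average, without overlap (log2 difference -0.72, limma adjusted p = 6.09e-05), and its part in the epithelial values given here was not tested. Nos3, the endothelial synthase gene, had 5.56, 8.32, 8.83 and 6.76 CPM in TR libraries, against 18.2, 22.8, 19.8 and 18.6 CPM in WT libraries. Its remaining tags are only a weak check of the genotype, since the place of the tags relative to the deleted part is unknown here. Sftpc, one of the most abundant transcripts, took 3.59% to 4.77% of the reads of TR libraries and 6.69% to 8.26% of those of WT libraries.

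Dmkn was far more abundant in the knockout lungs. It had 169, 199, 282 and 263 CPM in TR1 to TR4, against 11.5, 12.9, 9.06 and 13.5 CPM in WT1 to WT4. The genotypes did not overlap: the lowest TR library held more than 10 times the level of the highest WT library. The mean was 228 ± 53.1 CPM in TR and 11.7 ± 1.97 CPM in WT (SD, n = 4 each), a 19.5-fold ratio. In reads, 13002 Dmkn tags were recovered over the TR libraries and 799 over the WT libraries, so counting noise is small beside the difference. By mean level Dmkn ranked 655 among the 15728 listed genes in TR and 8943 in WT. Its difference was 4.21 on the log2(CPM + 0.5) scale (SE 0.164), the tenth largest increase among the 14065 genes tested. Dmkn was included because of this difference, so these values are a description and no test is given for them.

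Among the TR libraries Dmkn was lower in TR1 and TR2 than in TR3 and TR4, with a coefficient of variation of 23.2% in TR and 16.8% in WT. The library with the least Dmkn among the knockouts, TR1, is also the one with the least Arntl, a circadian clock activator, at 7.22 CPM against 20.5 to 22.8 CPM in the other TR libraries and 2.03 to 2.74 CPM in WT libraries. TR2, with the most Arntl at 22.8 CPM, had less Dmkn than TR3 and TR4, and a link between the genes was not tested. The part of TR1 in the Dmkn value can be read from its removal: without TR1 the log2 difference was 4.34. Over all 8 removals of a single library it stayed between 4.10 and 4.34.

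Because CAGE counts transcript starts, the sequence just before the annotated starts of the listed members is shown here, from RefSeq on GRCm38.p6. RefSeq gives Dmkn 3 starts, a pair only a few bases apart and another 12649 bases downstream. The deposited table sums all tags of a gene, so which start the Dmkn tags came from is not analysed here. Each line is the 150 bases before a start, on the strand of the gene, and 4 of the 6 listed members had an entry (Krt15 and Krt19 are named only). Capitals mark the TATA box letters TATAA, the related letters of ATAAA (which can overlap a TATA box match) and the AP-1 motif TGANTCA, all searched on both strands.
Dmkn, upstream start, chr7:30763606-30763755, + strand: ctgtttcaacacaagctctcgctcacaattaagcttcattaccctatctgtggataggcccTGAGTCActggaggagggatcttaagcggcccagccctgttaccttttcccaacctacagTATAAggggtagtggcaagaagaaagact
Dmkn, downstream start, chr7:30776255-30776404, + strand: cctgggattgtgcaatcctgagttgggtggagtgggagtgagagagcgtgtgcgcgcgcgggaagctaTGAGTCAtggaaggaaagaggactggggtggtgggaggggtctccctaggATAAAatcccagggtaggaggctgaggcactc
Krt7, chr15:101412253-101412402, + strand: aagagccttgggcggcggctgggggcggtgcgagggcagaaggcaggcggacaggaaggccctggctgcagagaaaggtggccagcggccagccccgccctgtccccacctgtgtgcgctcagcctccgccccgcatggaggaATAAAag
Krt8, chr15:102004343-102004492, - strand: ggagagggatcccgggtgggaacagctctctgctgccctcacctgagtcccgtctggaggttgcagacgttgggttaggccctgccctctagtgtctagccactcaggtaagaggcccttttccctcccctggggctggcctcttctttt
Krt18, chr15:102028066-102028215, + strand: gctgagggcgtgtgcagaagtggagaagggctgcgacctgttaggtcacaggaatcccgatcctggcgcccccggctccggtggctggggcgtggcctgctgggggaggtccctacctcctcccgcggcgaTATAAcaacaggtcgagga

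Both Dmkn windows held TGAGTCA, beginning at -89 before the upstream start and at -82 before the downstream start, where -1 is the base just before the start. A match to TGANTCA was present in 4.24% of the 32851 RefSeq windows of the same length. The upstream Dmkn window also held TATAA at -29 and the downstream one ATAAA at -32, motifs found in 14.1% and 24.1% of all windows. The Krt7 window had ATAAA at -7, and it also held GGGCGG in 4 places counting both strands, a motif present in 28.6% of windows. Krt18 had TATAA at -19, and none of these motifs, nor CCAAT (24.5% of windows), was found in the Krt8 window. TGAATCA, also a match to TGANTCA, was found at -119 in the window of the neighbour Sbsn, whose levels overlapped between genotypes. These matches describe letters in the reference and were not tested against the levels.

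The neighbours of Dmkn on chromosome 7 showed no difference of that size. Sbsn, which encodes suprabasin and lies next to Dmkn on the same strand, had 9.61, 11.8, 11.7 and 11.1 CPM in TR libraries, against 9.81, 11.5, 10.9 and 11.2 CPM in WT libraries. The groups overlapped, and the log2 difference was 0.03 (SE 0.0949; limma adjusted p = 0.855). In the WT lungs the levels of Dmkn and Sbsn were thus close, at 0.83 to 1.21 Dmkn tags per Sbsn tag, whereas the TR lungs had 16.8 to 24.2. On the other side Krtdap was not analysed here, and the next gene, Ffar2, a receptor for short-chain fatty acids, stayed at or under 0.23 CPM in every library. Tmem147 and Cd22, the next listed genes outward and chosen after their values were seen, had log2 differences of 0.13 and -0.32 (limma adjusted p = 0.125 and 0.128). The Cd22 value passed the threshold without TR1 (adjusted p = 0.0169) and with a replicate block (adjusted p = 0.0267). Near-identical copies of the Cd22 5′ end were found in 10 other genes, of which 2 are listed, and a gene outside the table overlaps Cd22, so its values are less certain. No other gene overlaps Dmkn in GENCODE M21 and no near-identical copy of its 5′ end was found.

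**Figure D1:**
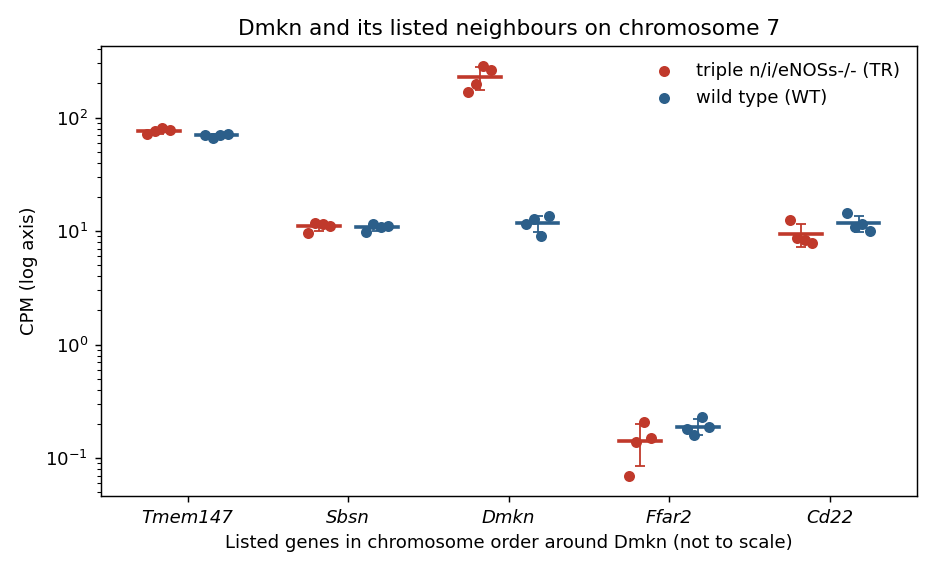
CPM (log axis) of Dmkn and of the listed genes around it, in chromosome order and not to scale, with 1 point per library, TR in red and WT in blue, bars for the mean and whiskers for the SD (n = 4 each). Dmkn separates the genotypes, at 169 to 282 CPM in TR and 9.06 to 13.5 CPM in WT, while the values of each neighbour overlap between genotypes.

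The differences of the keratin members were small beside that of Dmkn. Krt7, a type II keratin of simple epithelia, was the most abundant keratin, with 677, 707, 731 and 688 CPM in TR libraries, against 563, 605, 584 and 627 CPM in WT libraries. All TR libraries were above all WT libraries, by a ratio of means of 1.18. The mean was 701 ± 23.5 CPM in TR and 595 ± 27.8 CPM in WT (SD, n = 4 each), which gives a log2 difference of 0.24 (SE 0.0558). That difference was 0.22 with median-ratio scaling and 0.16 with quantile normalization. Krt7 tags varied little within a genotype, by 3.35% in TR and 4.68% in WT.

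Krt18, the type I partner of Krt8, had 91.7, 69.7, 92.1 and 79.6 CPM in TR libraries, against 68.5, 67.6, 71 and 71.4 CPM in WT libraries. TR2 lay within the WT range and the other TR libraries above it. The means were 83.3 ± 10.8 CPM in TR and 69.6 ± 1.9 CPM in WT (SD, n = 4 each), a log2 difference of 0.25 (SE 0.0875). Krt18 had the widest ratio of spreads between genotypes among the 6 members, with a coefficient of variation of 12.9% in TR and 2.72% in WT. Without TR2 the log2 difference was 0.33, and without TR3 it was 0.20.

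Krt8, the type II keratin that appears earliest in embryonic epithelia, had 177, 155, 190 and 145 CPM in TR libraries, against 137, 157, 158 and 148 CPM in WT libraries. The groups overlapped, with TR4 below 3 of the WT libraries. Krt19, a small type I keratin without the usual tail domain, had 166, 154, 190 and 160 CPM in TR libraries, against 135, 151, 160 and 154 CPM in WT libraries. TR3 and TR1 were above the WT range, and the other TR libraries lay inside it. Mean levels of Krt8 and Krt19 were nearly the same as each other in each genotype, at 167 and 167 CPM in TR and 150 and 150 CPM in WT. Their log2 differences were 0.15 (SE 0.0875) and 0.16 (SE 0.0784).

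Krt15, a type I keratin of basal cells, was the single listed member of the basal group and the least abundant of the 6, at rank 12759 of 15728 genes in TR and 12960 in WT. It had 1.66, 1.62, 3.17 and 3.07 CPM in TR libraries, against 2.57, 1.72, 2.6 and 1.8 CPM in WT libraries, which corresponds to 24 to 46 tags in each. The TR libraries lay on either side of the WT range, and the log2 difference was 0.08, smaller than its SE of 0.219. The sign of the Krt15 value changed among the alternatives, from -0.06 to 0.21.

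**Figure D2:**
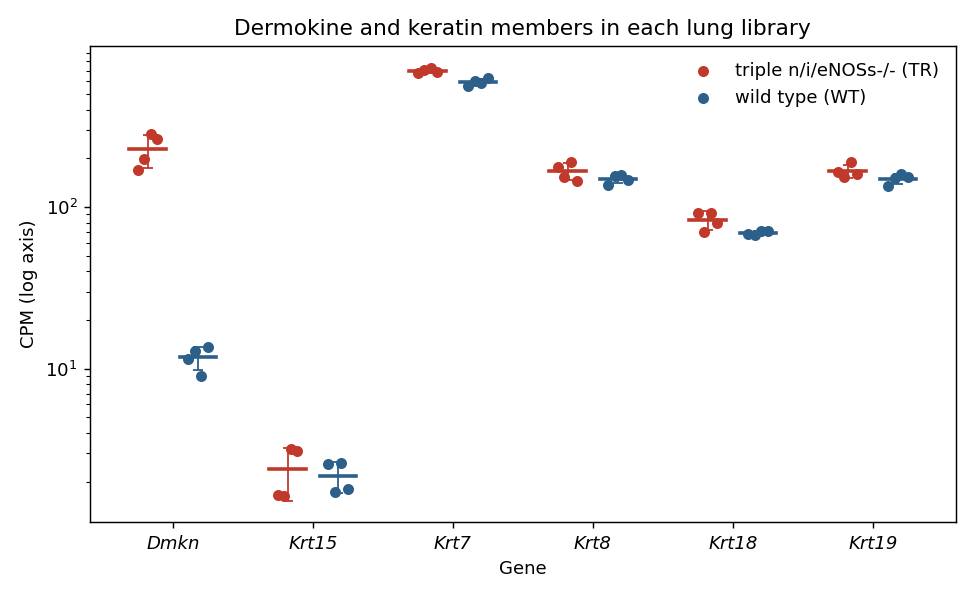
CPM (log axis) of the 6 listed members in each library, TR in red and WT in blue, with bars for the mean and whiskers for the SD (n = 4 each). Dmkn and Krt7 are the genes whose TR and WT points do not overlap, and Krt15 stays at 1.62 to 3.17 CPM.

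TR3 held the highest value of all libraries for each listed member: Dmkn, Krt7, Krt8, Krt18, Krt19 and Krt15 (3.17 CPM, with 3.07 CPM in TR4). Without it the log2 differences of Krt7, Krt8, Krt18 and Krt19 were 0.22, 0.08, 0.20 and 0.10. In GENCODE M21 genes outside the table overlap Krt7 and Krt8, and also Sbsn and Krt80, and whether tags were assigned by strand is unknown here, so these values are less certain.

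In the TR lungs the order of mean levels was Krt7, Dmkn, Krt19, Krt8, Krt18 and Krt15. Dmkn and Krt19 overlapped between libraries there, as did Krt19 and Krt8. In the WT lungs Krt7 came first, then Krt8 and Krt19, which overlapped, then Krt18, Dmkn and Krt15. Dmkn therefore stood above Krt18 in each TR library and below it in each WT library. Relative to Krt7, the Dmkn level was 0.25 to 0.386 in TR libraries and 0.0155 to 0.0216 in WT libraries.

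Of the 6 members, 2 (Dmkn and Krt7) passed an adjusted p under 0.05 as higher in TR in the limma fit, where 16.6% of all tested genes did and 30.9% were called in either direction. None was called lower, where 14.3% of all tested genes were. That count of 0 was the same for an unadjusted p under 0.05 and with edgeR and DESeq2. The higher count was 2 with edgeR and DESeq2, but 3 for an unadjusted p under 0.05. It was also 3 with a filter of 5 CPM, with the replicate block and without TR2. Groups did not overlap for the 2 members Dmkn and Krt7, as for 31.2% of all tested genes in either direction. Since the contrast helped to choose the members, nothing is read from these counts. The median log2 difference was 0.20 over the members and 0.01 over all tested genes.

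In RNA tags, the balance of the filament partners differed little between the genotypes, and keratin protein was not measured. The listed type II keratins that passed the filter (Krt7, Krt8 and Krt80) added up to 855 to 949 CPM in TR libraries and 712 to 790 CPM in WT libraries. The type I keratins (Krt15, Krt18, Krt19 and Krt23) added up to 245 to 311 CPM in TR libraries and 225 to 252 CPM in WT libraries. The ratio of type II to type I tags was 3.26 ± 0.248 in TR and 3.18 ± 0.13 in WT (SD, n = 4 each), and the ranges overlapped. Within the pair, 2.01 ± 0.172 Krt8 tags were found for each Krt18 tag in TR and 2.15 ± 0.142 in WT. Krt7 made up 58.0% to 62.5% of these keratin tags in TR libraries and 58.0% to 60.8% in WT libraries.

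Both of the other keratin genes that passed the filter were higher in TR. GENCODE M21 names 49 protein-coding genes Krt and a number, of which 9 were listed, and 4 of those were no members. Krt80, a type II keratin of differentiating epithelial cells, had 27.9, 24.7, 27.5 and 21.7 CPM in TR libraries, against 12.6, 14.6, 12.9 and 14.7 CPM in WT libraries. It rose without overlap, with a log2 difference of 0.87 (SE 0.0985; adjusted p = 0.000121 from limma). Krt23, a type I keratin, had 22.3, 20.1, 25.7 and 21.7 CPM in TR libraries, against 19.6, 15.9, 17.8 and 15.3 CPM in WT libraries. It rose by 0.38 (SE 0.102, limma adjusted p = 0.016), with TR2 just above WT1. Both stayed called under the 17 alternatives. Krt13, of the inner stratified epithelia, and Krt222 were listed at 0.38 CPM or less in every library and were not tested.

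**Figure D3:**
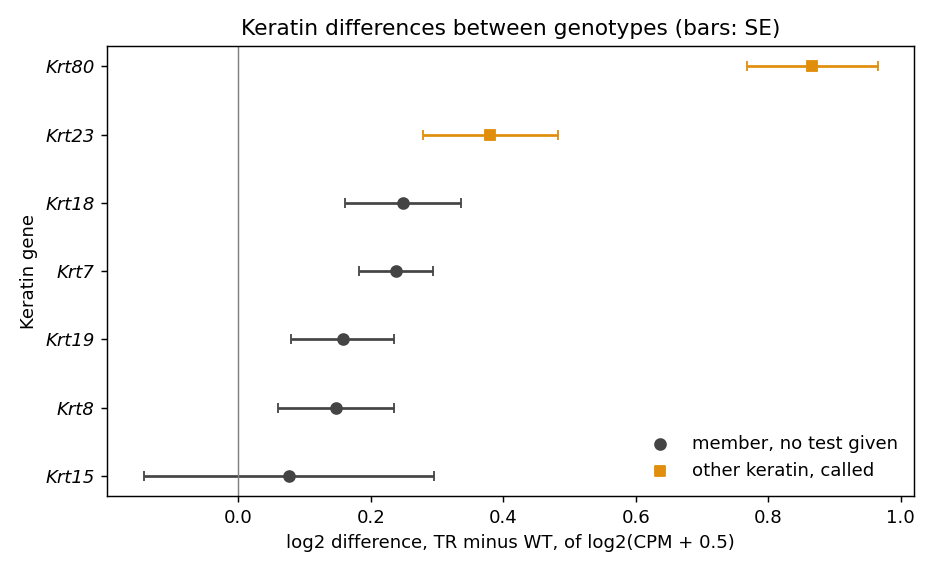
Log2 difference, TR minus WT, of each keratin gene that passed the filter, with bars for the SE; circles are members, for which no test is given, and squares are the other keratins. Krt80 lies highest at 0.87, the 4 simple keratins lie between 0.15 and 0.25, and the bar of Krt15 crosses 0.

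Genes of the cells and structures that use these keratins moved in both directions. The counts of each list stand beside the 16.6% of all tested genes that were called higher and the 14.3% called lower. Of 14 basal cell genes beside the members, 12 were listed and 10 tested, and Sox2, a transcription factor of airway basal and secretory cells, and the laminin receptor gene Itga6 fell. No basal gene was called higher, at an unadjusted p under 0.05 or with edgeR or DESeq2 either, but 1 was without TR2. Sox2 had 8.82 ± 0.737 CPM in TR and 12.3 ± 0.697 CPM in WT (SD, n = 4 each; limma adjusted p = 0.00344). The call of Itga6 ended without TR1, TR3, TR4, WT2, WT3 or WT4 and with the replicate block (adjusted p = 0.0342; 0.0548 with the block). Ngfr, the nerve growth factor receptor that marks airway basal cells, and the water channel gene Aqp3 were under 1 CPM in every library. Summed over the list, levels were 433 to 460 CPM in TR libraries and 424 to 487 CPM in WT libraries, with the widely expressed adhesion gene Bcam the largest contributor, at 201 to 218 CPM in TR libraries and 201 to 242 CPM in WT libraries. The summed ranges overlapped.

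Stratified and cornified epithelium is the setting in which dermokine is best known. Of 27 genes of that setting 12 were listed and 8 tested, of which 1 rose and 2 fell (4 fell without TR1). Sfn, which encodes the epithelial 14-3-3 protein stratifin, fell to 3.89 ± 0.477 CPM in TR, against 9.06 ± 1.08 CPM in WT (SD, n = 4 each; limma adjusted p = 9.48e-05). Calml3, a calmodulin-like gene of stratified epithelia, fell to 1.41 ± 0.332 CPM in TR, against 5.33 ± 1.36 CPM in WT (limma adjusted p = 0.000178). Perp, of desmosomes, rose by 0.31 on the log2 scale (limma adjusted p = 0.0113). Ivl, which encodes the cornified envelope protein involucrin, was at or under 0.17 CPM in every library. The summed level of the list was 104 to 135 CPM in TR libraries and 122 to 133 CPM in WT libraries, and the ranges overlapped.

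Keratin filaments are anchored at desmosomes and hemidesmosomes, and of 16 tested genes on the list of these junctions 3 rose and 4 fell. The list also holds Fam83h, Tchp, Trak1 and Dnajb6, which are not junction components as such, and Tchp was among the 3 that rose. The Tchp groups overlapped (limma adjusted p = 0.0452). The count of higher genes was 2 to 3 over the alternatives, and it was 2 where the Tchp call ended. That call ended with no filter, with median-ratio scaling, with DESeq2 and with the replicate block. It also ended without TR1, TR2, TR4, WT2, WT3 or WT4. The count of lower genes was 2 with the replicate block and without TR3, TR4, WT2 or WT3, and 1 without WT4. Plec, which encodes the linker plectin, rose to 102 ± 7.07 CPM in TR, against 71.6 ± 3.40 CPM in WT (SD, n = 4 each; limma adjusted p = 0.000315). The tetraspanin gene Cd151 fell by 0.31 (adjusted p = 0.0021) and the plakophilin gene Pkp4 by 0.58 (adjusted p = 0.0177) in the limma fit. The call of Pkp4 ended without WT4 (adjusted p = 0.0509). Of 23 tested general epithelial genes 5 rose and 4 fell. Without TR3 the counts were 3 higher and 2 lower, and the lower count was 1 without TR2, TR4, WT2, WT3 or WT4. Epcam, the epithelial adhesion gene, was at 147 ± 9.45 CPM in TR and 115 ± 2.77 CPM in WT (SD, n = 4 each; limma adjusted p = 0.00187). The claudin gene Cldn7 rose by 0.31 and the tight junction gene Marveld2 by 0.49 (limma adjusted p = 0.00234 and 0.00346). The claudin genes Cldn4 and Cldn3 fell by 0.56 and 0.25, and Rab25 and Prss8, both epithelial genes, by 0.30 and 0.27 (limma adjusted p = 0.0106, 0.0423, 0.0301 and 0.0463); of these, Cldn3, Rab25 and Prss8 were added after their values were seen. The calls of these 3 genes ended under several alternatives. That of Cldn3 ended without each library other than TR1 and with edgeR (adjusted p = 0.0531). That of Prss8 ended without TR2, TR3, TR4, WT2, WT3 or WT4, and that of Rab25 ended without TR2, TR4, WT2, WT3 or WT4, with the replicate block (adjusted p = 0.0586) and with quantile normalization (adjusted p = 0.0587).

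Krt8 is also known as a marker of transitional cells that appear when alveolar type 2 cells turn into type 1 cells. Of 17 tested genes of that state 6 rose and 2 fell, where 16.6% and 14.3% of all tested genes did. S100a6, a calcium-binding protein gene expressed in many cells, rose to 3784 ± 339 CPM in TR, against 2074 ± 258 CPM in WT (SD, n = 4 each; limma adjusted p = 9.14e-05). The integrin gene Itgb6 rose by 0.81 (adjusted p = 0.000805) and Tnfrsf12a, a cytokine receptor gene, by 0.48 (adjusted p = 0.000976) in the limma fit. Sfn and Cldn4, also on this list, were those that fell. Krt8 itself had groups that overlapped, as given above.

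The mesothelium, the covering layer of the lung, also expresses simple keratins. Its 16 tested genes split into 3 that rose and 3 that fell, and the lower count was 1 without WT2, WT3 or WT4. C3, the complement gene, fell by 0.63 (limma adjusted p = 0.00121). Rspo1, a Wnt agonist gene added after its values were seen, fell by 0.41 (limma adjusted p = 0.0198), a call that ended without WT2, WT3 or WT4. Igfbp6 rose by 0.43, Efemp1 by 0.41 and Aldh1a2 by 0.52 (limma adjusted p = 0.00287, 0.00497 and 0.00518), and fibroblasts express these genes too. Among its defining genes, chosen after their values were seen, Msln was at 49.2 ± 4.93 CPM in TR and 63.6 ± 10 CPM in WT, and Upk3b at 134 ± 10.3 CPM in TR and 111 ± 16.7 CPM in WT (SD, n = 4 each). The limma adjusted p were 0.0347 for Msln, whose 5′ end has a near-identical listed copy, and 0.0551 for Upk3b. Upk1b, Lrrn4, Wt1 and Bnc1, also on the list, had log2 differences of 0.07, 0.14, 0.41 and -0.36, and limma called none of them. The Msln call ended without TR1, TR3, TR4, WT2, WT3 or WT4. Upk3b passed the threshold with median-ratio scaling (adjusted p = 0.0424), edgeR, DESeq2 and without WT3 (adjusted p = 0.0258). The mesothelial list summed to 1146 to 1189 CPM in TR libraries and 920 to 1078 CPM in WT libraries, without overlap, with Igfbp6 the largest contributor at 403 CPM in TR and 298 CPM in WT on average. The part of this list in the keratin and Dmkn values was not tested.

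The median log2 difference was 0.23 for the transitional list, 0.0076 for the junction list, 0.0056 for the mesothelial list, 0.0034 for the general epithelial list, -0.05 for the basal list and -0.24 for the stratified list, beside 0.01 over all tested genes. Nothing particular to any list is read from these medians.

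**Figure D4:**
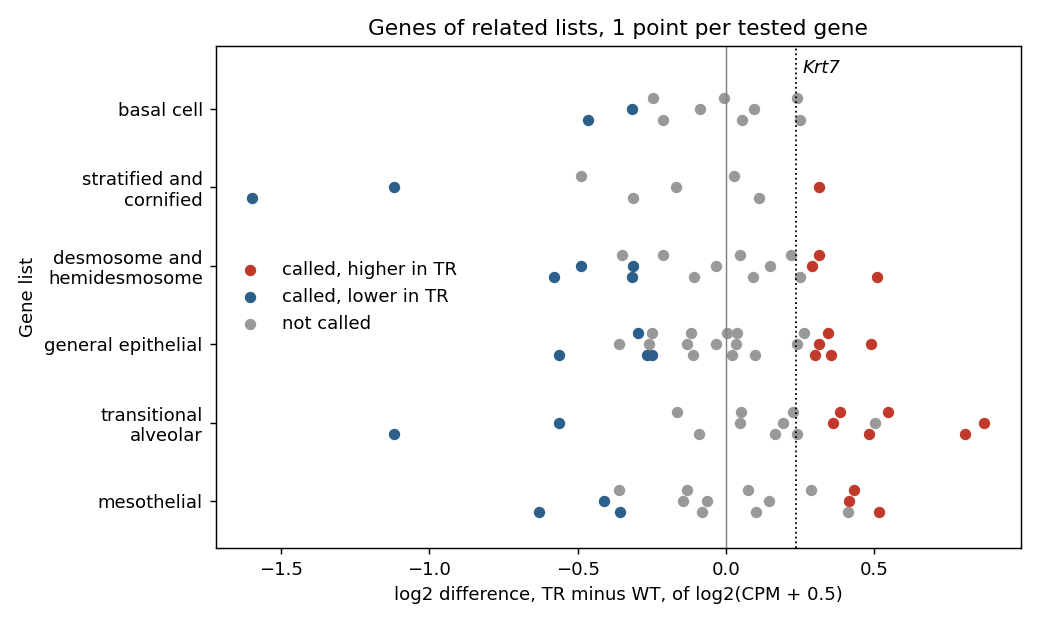
Log2 difference, TR minus WT, of each tested gene in 6 gene lists, in red where called higher, blue where called lower and grey where not called; the dotted line marks Krt7 at 0.24. Points lie on both sides of 0 in each list, and the list medians run from -0.24 in the stratified list to 0.23 in the transitional alveolar list.

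Tissues next to the lung that are rich in basal keratins were checked by their own genes. Of 15 genes of thymocytes and thymic epithelium 6 were listed and 4 tested, and Cd1d1, which antigen-presenting cells of the lung also express, rose (limma adjusted p = 0.0405; 0.0672 with the replicate block). Its call also ended without TR1, TR2, TR4, WT2, WT3 or WT4. None of that list was called lower by limma, edgeR or DESeq2, 1 had an unadjusted p under 0.05, and 1 was called lower without TR1 and with the replicate block. The list summed to 23.5 to 29.9 CPM in TR libraries and 22.2 to 26.8 CPM in WT libraries. Of 14 tracheal cartilage genes 2 were listed, Chad and Hapln1, and the 1 tested (Chad) was not called by limma, edgeR or DESeq2 nor at an unadjusted p under 0.05. Hapln1 had 0.07 to 0.31 CPM in TR libraries and 0 to 0.06 CPM in WT libraries, without overlap but close to a floor of 3 reads. Of 14 genes of oesophageal squamous epithelium 4 were listed and 3 tested. There Gsta4, a detoxifying enzyme gene also used in lung, fell by 0.59 (limma adjusted p = 0.000405) and Mal, a membrane traffic gene, rose by 0.36 (limma adjusted p = 0.0176; 0.0552 without WT2). Krt13, the keratin of that epithelium, had 12 tags over all TR libraries and 6 over all WT libraries.

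By the likeness of their levels over the 8 libraries, the genes nearest to Dmkn among 14064 others were Gm6467, Tes, Acadm, Slc7a8 and Myh7 (the 5′ end of Tes has a near-identical listed copy). The libraries fall into the genotype groups, and the measure, a correlation of log2(CPM + 0.5) of 0.994 to 0.997, mostly records that split, which 925 genes shared at above 0.9. Krt7 was among those above 0.9, with a correlation of 0.941. The correlations of Krt18, Krt19, Krt8 and Krt15 with Dmkn were lower, at 0.719, 0.62, 0.503 and 0.171. Of the nearest genes, Gm6467, Tes, Acadm, Slc7a8 and Myh7, none is a keratin or lies beside Dmkn. The differences of these nearest genes were smaller than that of Dmkn. Slc7a8, an amino acid transporter gene, had the widest of them, with 3.41 ± 0.371 CPM in TR and 0.82 ± 0.144 CPM in WT (SD, n = 4 each). Acadm, of fatty acid oxidation, was at 188 ± 10.6 CPM in TR and 117 ± 3.85 CPM in WT.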

How the data were processed

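Each library was made from cap-trapped cDNA of lung total RNA and sequenced as single-end reads of 75 nt, per the labels' protocols. Named in the submitters' processing notes are the build mm9 and the tools edgeR, HISAT2 2.0.5 and BWA 0.7.12-r1039, with no role or order; how tags were assigned to genes, and on which strand, is not stated in what was used here. The values deposited by the authors are CPM with 2 decimals, adding up to 1000000 per library. They are whole multiples of the CPM of 1 read, and dividing by it gave whole reads, to within 0.1, for 100% of values. A count of 3 reads, 0.161 to 0.231 CPM, served as the floor, and it covers counting error only. Between replicate libraries the chi-square per gene was 11.6 to 19.8, so none repeats another.

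The filter kept 14065 genes that reached 1 CPM in 4 or more libraries. Limma 3.58.1 (R 4.3.3) was fitted to log2(CPM + 0.5) with a mean-variance trend and genotype alone. Adjusted p are two-sided Benjamini-Hochberg values over all genes tested, called under 0.05. Alternatives included edgeR 4.0.16 and DESeq2 1.42.0 on the recovered reads.

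The members and gene lists were chosen with earlier results of these data known. In part, genes were named by rule: all members, every other listed keratin, up to 4 called genes per list by adjusted p and list genes near 0. The rule also took the nearest neighbours of Dmkn and the 5 genes most like it. Named besides these were Arntl, the genes that check lung and genotype, and further list genes. Genes said above to be added or chosen after their values were seen were also outside the rule. Promoters are from RefSeq (GRCm38.p6) and gene order from GENCODE M21, so their coordinates are not those of the reads. Copies of 5′ ends (97% identity over 75 nt) were sought with blastn 2.17.0.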

Additional observations from a re-analysis of the deposited data

Results flagged for a closer look

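In 6 of 90 groups of 4 libraries a single value stood far from the other 3, where chance flags about 1 in 20. Krt13 had 0.00 CPM in TR3, against 0.26 to 0.31 CPM in the other TR libraries, a matter of 4 reads. Cldn7 had 219.11 CPM in TR3, above the 192 to 195 CPM of the other TR libraries, and Mal had 37.40 CPM in TR3, above 29.3 to 30.0 CPM. TR3 also held the highest Dmkn, Krt7, Krt8, Krt18, Krt19 and Krt15 values of all libraries. S100a6 had 2456.96 CPM in WT4, above 1894 to 1978 CPM in the other WT libraries, and Sox2 had 11.30 CPM in WT1, below 12.7 CPM in the others. Rspo1 had 5.68 CPM in WT1, below 7.24 to 7.51 CPM in the other WT libraries.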

How the results depend on the processing

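Of the 6 members, 2 or 3 were called higher and 0 lower under each of the 17 alternatives (2 to 3 when 1 library was left out), and both other keratins stayed called. The log2 difference of Dmkn ranged from 4.10 to 4.34, and that of Krt7 from 0.16 with quantile normalization to 0.26. Over all genes, 1741 to 2387 were called higher and 1552 to 2358 lower. Over the lists together 19 genes were called higher and 15 lower, and 15 to 21 and 7 to 17 when 1 library was left out; the lowest counts of lower genes, 7, 8, 8 and 9, came without WT4, WT2, WT3 and TR4. With the replicate block, 3 members were called higher. To check the numbering, the genotype mean of each gene was subtracted from its log2 level in each library. The remaining deviations, not the levels themselves, were correlated between TR and WT libraries. Same-numbered pairs had correlations of -0.003 to 0.065, and different-numbered pairs had -0.134 to 0.120, the highest for TR3 with WT2. Not every library correlated best with its own number. With 4 libraries per genotype, this check cannot tell whether same-numbered samples shared a litter or batch. Among the genes named in the text, the block ended the calls of Itga6, Tchp, Cd1d1 and Rab25 and brought that of Cd22. The block also took the members called higher from 2 to 3. Its counts of lower genes were 2 (against 4) in the junction list, 3 (against 4) in the general epithelial list, 3 (against 2) in the stratified list, 1 (against 2) in the basal list and 1 (against 0) in the thymic list, and its counts of higher genes were 2 (against 3) in the junction list and 0 (against 1) in the thymic list. The depth of 13014134 to 18593913 reads leaves Krt15, the member with the fewest, at 24 to 46 tags per library; what size of difference such counts can show was not tested.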
